A study of Rattus norvegicus and Bos taurus with 6 samples.

Results

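Ucp1-positive nuclei of white rat fat were taken as the nuclei with at least 1 UMI (1 counted transcript) of Ucp1 in the 2 white rat libraries made with the Parse kit. They numbered 165 of 5833 nuclei: 96 of 3028 in the library labelled mesPVAT (mesenteric perivascular adipose tissue) and 69 of 2805 in the library labelled RP fat (retroperitoneal fat). The series held 19424 nuclei in 6 libraries. The nuclei were chosen by their own Ucp1 count, so their Ucp1 values are given as a description, and the other genes and the barcodes were compared with Ucp1-negative nuclei of the same library with the same number of UMIs.

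All rat tissues came from male Dahl salt-sensitive rats (SS/HsdMcwiCrl), housed at 22 °C and with no treatment named in the labels, and were snap frozen before nuclei were isolated. The brown libraries beside them were thoracic aortic perivascular fat (taPVAT) and subscapular brown fat (BAT), and mesPVAT was also run on the 10x Genomics platform. Both white libraries are named as labelled, but the study's text gives the larger number of genes per nucleus to RP fat, whereas the library labelled mesPVAT has it in the files, so the names may be exchanged. Each tissue had 1 Parse library, so no comparison had a replicate and no test was made. The intervals are exact 95% intervals (binomial for shares, Poisson for sums, conditional for ratios) and cover counting error only.

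Brown adipocytes burn fuel for heat. UCP1, a carrier of the inner mitochondrial membrane, lets protons return to the matrix without making ATP, and it is the defining protein of brown and beige adipocytes. White adipocytes store triglyceride, but in some white depots scattered beige adipocytes switch on Ucp1 together with the other genes of the heat program. These include Cidea, a protein of lipid droplets, Cpt1b, which carries long fatty acids into muscle and brown fat mitochondria, Gk, the glycerol kinase that recycles glycerol, and Ppargc1a, a coactivator of mitochondrial biogenesis. Plin1 coats the lipid droplet in both white and brown adipocytes. In the GRCr8 assembly, on which the Parse reads were counted, RefSeq places Ucp1 (ENSRNOG00000003580) on chromosome 19 from 41713350 to 41721421.

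The positive nuclei carried very little Ucp1. The mesPVAT library held 105 Ucp1 UMIs among 1656726 UMIs, or 63.4 CPM (UMIs of a gene scaled to a fixed total of UMIs; interval 51.8 to 76.7), and RP fat held 76 among 845316, or 89.9 CPM (70.8 to 112.5). BAT held 2072 CPM and taPVAT 1782 CPM. Exactly 1 Ucp1 UMI was found in 87 of the 96 positive mesPVAT nuclei (90.6%) and in 64 of the 69 positive RP nuclei (92.8%), against 18.1% of 1693 positive nuclei of BAT and 24.0% of 1421 of taPVAT. In mesPVAT the other 9 nuclei had 2 UMIs each, and in RP fat 4 nuclei had 2 and 1 had 4. The shares of positive nuclei were 3.17% (2.58 to 3.86) in mesPVAT, 2.46% (1.92 to 3.10) in RP fat, 52.5% in taPVAT and 62.7% in BAT. White nuclei were shallower, with medians of 346 UMIs in mesPVAT and 213 in RP fat, against 1246 in taPVAT and 1706 in BAT. Thinning each nucleus with at least 200 UMIs to 200 left expected shares of 1.56% in mesPVAT, 1.65% in RP fat, 20.3% in taPVAT and 25.1% in BAT, from 2552, 1503, 2708 and 2699 nuclei. The plot of shares by library shows that the gap between the white and the brown libraries remained at equal depth. In mesPVAT run on the 10x Genomics platform, 1 of 5887 nuclei had a Ucp1 UMI (0.0170%), at a median of 161 UMIs.

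**Figure D1:**
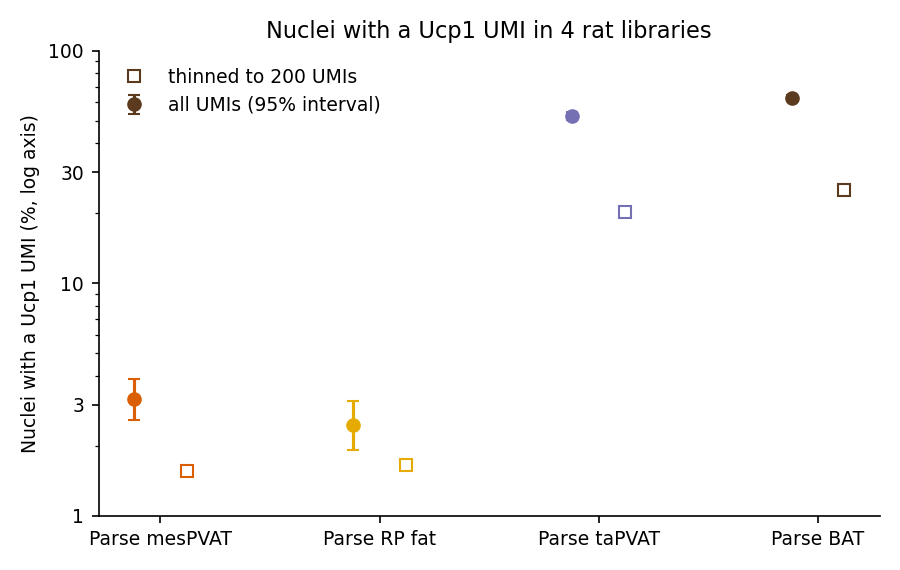
Share of nuclei with a Ucp1 UMI (%, log axis) in the 4 rat Parse libraries. Filled points are all UMIs with exact 95% binomial intervals, open squares the expected share after thinning to 200 UMIs, and the white libraries lie at 1.56% to 3.17%, the brown libraries at 20.3% to 62.7%.

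Before the expression of the positive nuclei is described, their barcodes need a description, since they differed from those of other nuclei. In the Parse kit a nucleus is known by its wells in 3 rounds of pooling and splitting, of which the first round is loaded by tissue, and by its sublibrary. No full barcode occurred in more than 1 of the 4 rat Parse libraries. A white nucleus was said to have a brown-depot partner when a called nucleus of BAT or taPVAT of the same sublibrary carried the same second- and third-round barcodes, so that only the first-round well told them apart. A partner was found for 1083 of 3028 nuclei of mesPVAT and 1016 of 2805 of RP fat (35.8% and 36.2%).

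Ucp1-positive white nuclei had a brown-depot partner far more often than nuclei without Ucp1. In mesPVAT 75 of 96 positive nuclei had one (78.1%, 68.5 to 85.9), against 155 of 480 matched negative nuclei (32.3%, 28.1 to 36.7). In RP fat the numbers were 45 of 68 (66.2%, 53.7 to 77.2) and 112 of 340 (32.9%, 28 to 38.2). All 14 nuclei with 2 or more Ucp1 UMIs, 9 in mesPVAT and 5 in RP fat, had a partner, and the partner held at least 6 Ucp1 UMIs. Barcode pairings of other kinds differed less. For the same second- and third-round barcodes in the other sublibrary, the shares were 26.0% of positive and 24.8% of negative nuclei in mesPVAT, and 38.2% (26.7 to 50.8) and 25% (20.5 to 29.96) in RP fat. For a cow nucleus of the same sublibrary they were 12.5% and 11.3% in mesPVAT, and 11.8% and 11.2% in RP fat. For a nucleus of the other white library they were 41.7% (31.7 to 52.2) and 29.4% (25.3 to 33.7) in mesPVAT, and 41.2% (29.4 to 53.8) and 29.7% (24.9 to 34.9) in RP fat. Among nuclei without a brown-depot partner, this last pairing was found for 4 of 21 positive and 73 of 325 negative nuclei in mesPVAT, and for 3 of 23 and 57 of 228 in RP fat.

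The share of white nuclei with Ucp1 was graded by the Ucp1 content of the partner, as the plot by partner shows. In mesPVAT, 21 of 1945 nuclei without a partner had a Ucp1 UMI (1.08%, 0.67 to 1.65), and so did 6 of 323 whose partner had none (1.86%, 0.68 to 4.00). The share was 4.14% (2.08 to 7.28) with a partner of 1 to 4 Ucp1 UMIs, 8.78% (5.29 to 13.5) with 5 to 9, 14.9% (10.1 to 21.0) with 10 to 19 and 12.0% (6.57 to 19.7) with 20 or more. In RP fat the same 6 shares were 1.29% (0.82 to 1.92), 1.52% (0.50 to 3.51), 2.90% (1.18 to 5.89), 6.32% (3.31 to 10.8), 7.18% (3.88 to 12.0) and 12.0% (5.64 to 21.6). Depth ran the other way, with median UMIs per nucleus of 363 without a partner and 255.5 with a partner of 20 or more in mesPVAT, and 228 and 179 in RP fat. In Ucp1 CPM the first and last grades were 19.9 (12.3 to 30.4) and 463 (275 to 732) in mesPVAT, and 41.0 (26.0 to 61.5) and 544 (249 to 1032) in RP fat. In both libraries the intervals of the 2 lowest grades lay below those of the highest grade.

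**Figure D2:**
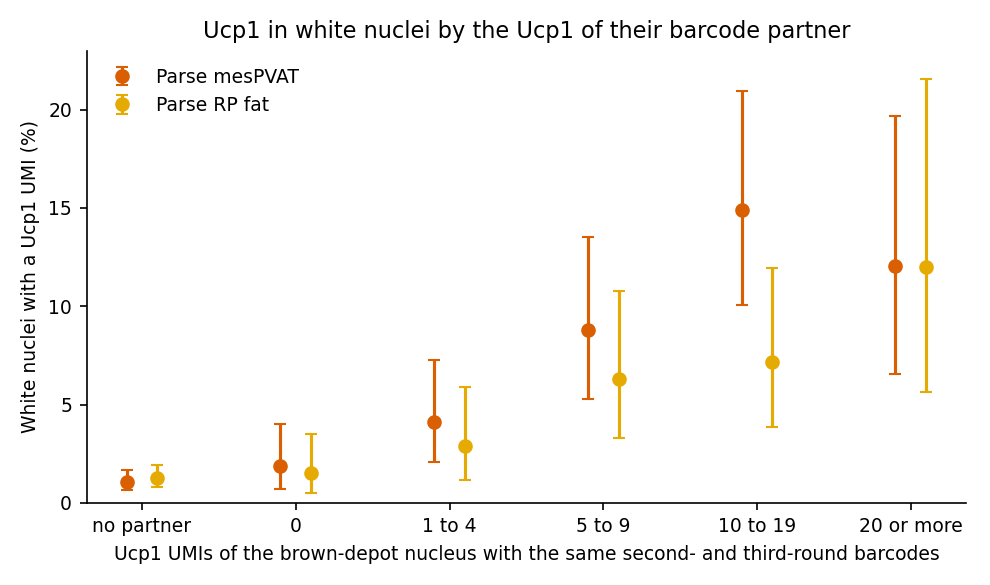
Share of white nuclei with a Ucp1 UMI (%) by the number of Ucp1 UMIs in the brown-depot nucleus of the same sublibrary with the same second- and third-round barcodes, in mesPVAT (orange) and RP fat (yellow). Points are shares with exact 95% binomial intervals, and shares lie at 1.08% and 1.29% without a partner and at 12.0% in both libraries with a partner of 20 or more Ucp1 UMIs.

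The first-round wells of a tissue differed in the same way. In mesPVAT 70 of 1707 nuclei of well A8 had a Ucp1 UMI (4.10%, 3.21 to 5.15), against 26 of 1321 of well A7 (1.97%, 1.29 to 2.87), and in RP fat 55 of 1845 nuclei of well A9 (2.98%, 2.25 to 3.86) against 14 of 960 of well A10 (1.46%, 0.80 to 2.43). Among nuclei with a partner, the shares were 8.89% (6.83 to 11.3) in A8 and 3.82% (2.20 to 6.13) in A7, and 5.74% (4.12 to 7.77) in A9 and 2.08% (0.84 to 4.23) in A10. Among nuclei without one, they were 1.05% and 1.11% in mesPVAT, and 1.37% and 1.12% in RP fat. Among nuclei with a partner, the intervals of the 2 wells were apart in mesPVAT and overlapped slightly in RP fat, and among those without they overlapped in both. Whether transcripts or barcodes were exchanged between partners was not tested, and Ucp1 made in a white nucleus and Ucp1 of another nucleus read under its barcode cannot be told apart in these counts. The results below are therefore given for all positive nuclei and then by partner.

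For the comparison of expression, each positive nucleus was set beside 5 Ucp1-negative nuclei of its library within 10% of its UMI total. All 96 positive nuclei of mesPVAT were matched, to 480 negative nuclei (medians of 329.5 UMIs in both), and 68 of 69 of RP fat, to 340 (276.5 in both). The positive groups held 50855 and 22618 UMIs in all, so single genes rest on few counts.

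In mesPVAT, Cidea and Cpt1b were higher in the positive than in the matched nuclei with intervals above 1, whereas the intervals of Gk, Ppargc1a and Plin1 included 1. Cidea had 9 UMIs in the positive and 16 in the negative nuclei, a CPM ratio of 2.81 (1.10 to 6.76). Cpt1b had 7 and 7 UMIs, a ratio of 5.00 (1.5 to 16.7). Matched within partner status, the ratio was 1.80 for Cidea and 3.89 for Cpt1b. Partner status means having a partner or not, and the Ucp1 content of the partner was not matched. Split by partner, as given below, the intervals of both genes included 1 with and without a partner. Gk had 6 and 12, a ratio of 2.50 (0.77 to 7.20). Ppargc1a had 13 and 46 UMIs, a ratio of 1.41 (0.70 to 2.66). For Plin1, with 60 and 348 UMIs, the ratio was 0.86 (0.64 to 1.14), and a UMI was found in 22.9% of positive and 22.3% of negative nuclei.

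In RP fat the counts were smaller still and all 5 intervals included 1. Cidea had 4 UMIs in the positive and 4 in the negative nuclei, a ratio of 5.00 (0.93 to 26.8). The ratio of Cpt1b was 2.50 (0.23 to 17.4) from 2 and 4 UMIs, and that of Gk 5.00 (0.36 to 68.9) from 2 and 2. Ppargc1a had 4 and 27 UMIs, a ratio of 0.74 (0.19 to 2.12), and Plin1 had 13 and 56, a ratio of 1.16 (0.58 to 2.15).

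Positive nuclei of the brown libraries set a reference for these ratios. In BAT the ratio was 4.74 (4.19 to 5.37) for Cidea, 6.76 for Cpt1b, 7.55 for Gk, 3.76 for Ppargc1a and 3.17 (2.96 to 3.40) for Plin1. In taPVAT it ranged from 2.35 for Plin1 to 6.17 for Cpt1b. These values rest on the 737 of 1693 and 721 of 1421 positive nuclei for which 1 negative nucleus of like depth was found. These nuclei were deeper, with medians of 1339 UMIs in the positive nuclei of BAT and 1221 in those of taPVAT. As the plot of the 5 genes shows, the intervals of Ppargc1a and Plin1 in both white libraries lay below those of BAT and taPVAT, while those of Cidea, Cpt1b and Gk overlapped them. At 200 UMIs per nucleus the brown ratios lay within these white intervals for Ppargc1a in both libraries and for Plin1 in RP fat. The white intervals are for nuclei that were not thinned. At 300 UMIs the same held, except that Ppargc1a in taPVAT, at 2.25, lay above the RP fat interval (0.19 to 2.12). With every nucleus of at least 200 UMIs thinned to 200, the expected ratios in BAT were 1.75 for Cidea, 1.95 for Cpt1b, 1.95 for Gk, 1.90 for Ppargc1a and 1.64 for Plin1, and in taPVAT they ranged from 1.77 for Plin1 to 2.29 for Cpt1b. The thinned ratios in mesPVAT were 4.19, 8.33, 4.24, 1.52 and 0.508 in the same order of genes, on 1.82 to 4.37 expected UMIs in the positive nuclei, and in RP fat 5.69, 9.58, 4.26, 1.19 and 1.003, on 0.749 to 2.41. The white ratios differed between the thinning depths, which also kept different sets of nuclei. Thinning to 200 UMIs left out 476 nuclei of mesPVAT and 1302 of RP fat, and thinning to 300 left out 1264 and 1889. The part of depth and that of the nuclei left out cannot be told apart. At 300 UMIs they were 2.85, 2.18, 7.24, 2.58 and 0.740 in mesPVAT, on 0.491 to 7.82 expected UMIs. In RP fat they were 9.85, 0, 0.631, 0.187 and 0.731, on 0 to 2.54, so that all but Cidea lay below 1.

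**Figure D3:**
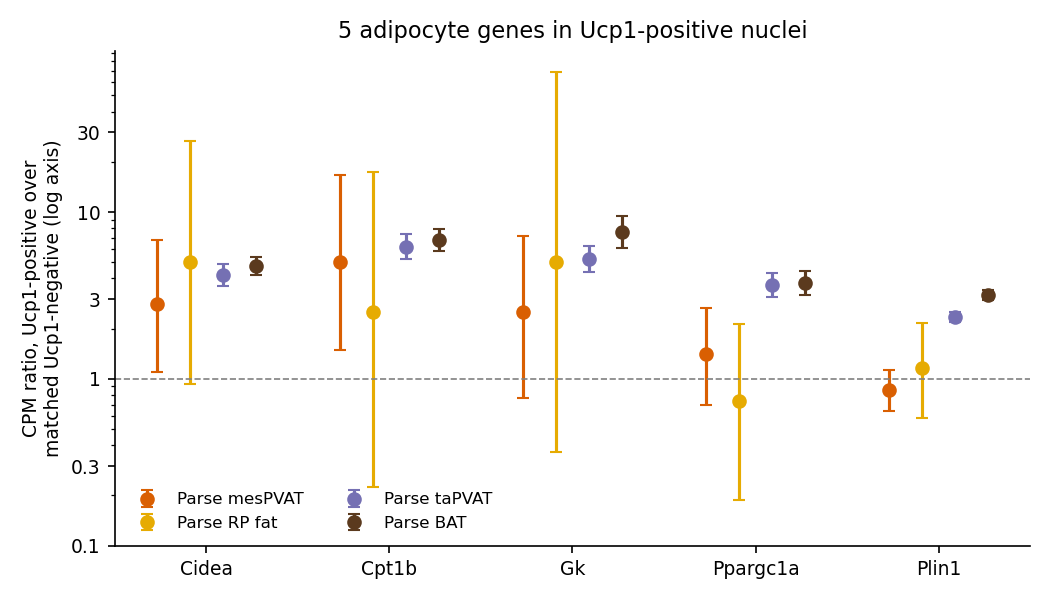
CPM ratio of 5 genes in Ucp1-positive over UMI-matched Ucp1-negative nuclei (log axis, dashed line at 1) in 4 Parse libraries. Points are ratios with exact conditional 95% intervals, and in mesPVAT they run from 0.86 for Plin1 to 5.00 for Cpt1b, against 3.17 to 7.55 in BAT, whose nuclei were deeper.

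Few positive nuclei carried more than 1 of the genes. At least 2 of the 5 had a UMI in 12 of 96 positive nuclei of mesPVAT (12.5%, 6.6 to 20.8), against 20 of 480 matched nuclei (4.17%, 2.56 to 6.36). In RP fat they did in 4 of 68 (5.88%, 1.63 to 14.4), against 4 of 340 (1.18%, 0.32 to 2.98). Without Plin1, at least 1 of the other 4 genes was seen in 29.2% of positive and 14.0% of negative nuclei of mesPVAT, and in 13.2% and 9.71% in RP fat, compared with 87.1% and 42.7% in BAT. At least 2 of the 4 were seen in 4 of 96 positive and 2 of 480 negative nuclei of mesPVAT, and in 1 of 68 and 2 of 340 in RP fat. No white nucleus of either group had 3 of the 4, so that the exact interval for positive nuclei of mesPVAT reaches 3.77%, whereas 48.0% of matched positive nuclei of BAT did, at a higher median depth of 1339 UMIs. The positive mesPVAT nucleus with the most of the 5 genes held 1 UMI of Cidea, 2 of Cpt1b and 3 of Plin1 among 1303 UMIs and had no brown-depot partner.

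Seen from the other side, Ucp1 was found in 8.42% (3.71 to 15.9) of the 95 mesPVAT nuclei with a Cidea UMI and in 11.5% (4.35 to 23.4) of the 52 with a Cpt1b UMI. It was found in 7.04% (2.33 to 15.7) of the 71 with Gk and in 5.37% (2.89 to 9.01) of the 242 with Ppargc1a. It was found in 3.31% (2.08 to 4.97) of the 665 with Plin1, and in 2.60% (2.03 to 3.29) of the 2611 with none of Cidea, Cpt1b, Gk and Ppargc1a. The shares in RP fat were 10.5% (2.94 to 24.8) of 38 nuclei with Cidea, 7.41% (0.91 to 24.3) of 27 with Cpt1b and 4.44% (0.54 to 15.1) of 45 with Gk. They were 3.72% (1.80 to 6.73) of 269 with Plin1, 1.40% (0.29 to 4.04) of 214 with Ppargc1a and 2.37% (1.81 to 3.04) of 2492 with none of the 4. In BAT 85.6% of nuclei with Cidea and 82.0% of those with Plin1 had Ucp1. These shares were not matched for depth. Median UMIs in mesPVAT ran from 436 with Gk to 605 with Plin1, against 332 with none of the 4. In RP fat they ran from 151 with Cpt1b to 347.5 with Ppargc1a, against 207 with none. The BAT nuclei with Cidea had a median of 2392.5 UMIs.

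The amount of each gene per Ucp1 UMI also differed from that of brown nuclei. In the positive nuclei of mesPVAT there were 0.086 UMIs of Cidea (0.038 to 0.169) and 0.124 of Ppargc1a (0.064 to 0.221) for each Ucp1 UMI. In RP fat these were 0.066 (0.021 to 0.160) and 0.053 (0.014 to 0.140). The positive nuclei of BAT held 0.515 Cidea and 0.253 Ppargc1a UMIs per Ucp1 UMI, and those of taPVAT 0.438 and 0.311. The choice of nuclei fixes at least 1 Ucp1 UMI in each, so these amounts are a description. Over whole libraries, with no choice of nuclei, Gk, Ppargc1a and Plin1 were higher per Ucp1 UMI in the white libraries than in BAT, and Cidea was higher in mesPVAT alone. Gk stood at 0.78 (0.58 to 1.05) in mesPVAT and 0.59 (0.40 to 0.87) in RP fat, against 0.27 in BAT. Cpt1b stood at 0.51 (0.36 to 0.72) and 0.41 (0.26 to 0.63), against 0.50 in BAT. There were 0.95 Cidea, 2.92 Ppargc1a and 20.3 Plin1 UMIs per Ucp1 UMI in mesPVAT and 0.53, 3.05 and 5.32 in RP fat, against 0.54, 0.27 and 1.21 in BAT.

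Among all genes with at least 20 UMIs over positive and matched nuclei, 107 of 3365 (3.18%) were at least 2-fold higher in the positive nuclei of mesPVAT and 243 (7.22%) at least 2-fold lower, with 1 UMI added to each sum. In RP fat these were 35 of 1107 (3.16%) and 109 (9.85%). A gene could reach the minimum through the larger negative group alone, so that the lower count holds many genes with 0 UMIs in the positive group. A gene with few UMIs in the negative group could also reach it only by being high in the positive group, so the counts and medians of listed genes that follow are descriptions and support no difference from other genes.

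Of 32 listed thermogenic genes, 12 had enough UMIs in mesPVAT to be compared. Of these, 6 were at least 2-fold higher and 0 lower, against 3.18% and 7.22% of all genes. The median log2 ratio was 0.91, against −0.04 over all genes. The 6 were Cidea, Pdk4, which restrains the entry of pyruvate into the citric acid cycle (17 and 18 UMIs, ratio 4.72, 2.29 to 9.71), Ppara, a regulator of fatty acid oxidation (12 and 13, 4.61, 1.92 to 11), Atp2a2, a calcium pump of the endoplasmic reticulum (12 and 26, 2.31, 1.06 to 4.74), and Hadha and Acadvl, enzymes of fatty acid oxidation (2.14, 1.22 to 3.64, and 2.69, 0.91 to 7.26). Cidea, Ppara and Acadvl would not have reached the minimum at the level of the negative nuclei. Ebf2 and Esrrg, transcription factors of brown fat, each had 18 and 50 UMIs, a ratio of 1.80 (0.99 to 3.14), and Prdm16, a determinant of the brown fate, had 6 and 37, a ratio of 0.81 (0.28 to 1.94). In the positive mesPVAT nuclei 7 of the 32 genes had no UMI, among them Dio2 and Cox7a1, which had none in the matched nuclei either, and Elovl3 and Cox8b had 1 each.

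In RP fat 5 of the 32 genes could be compared, of which 1, Ppargc1b, a coactivator related to Ppargc1a, was at least 2-fold higher (11 and 16 UMIs, ratio 3.44, 1.44 to 7.88) and 0 lower by the same rule, with a median log2 ratio of 0.19 against −0.08 over all genes. Of all genes compared in RP fat, 3.16% were at least 2-fold higher and 9.85% lower. Ppargc1b too would not have reached the minimum at the level of the negative nuclei. Prdm16 had 3 and 33 UMIs there, a ratio of 0.45 (0.09 to 1.45). As sums, Cidea, Cpt1b, Gk and Ppargc1a together gave a ratio of 2.16 (1.41 to 3.25) in mesPVAT and 1.62 (0.77 to 3.18) in RP fat, and the other 28 genes of the list gave 1.96 (1.61 to 2.38) and 1.66 (1.22 to 2.23). The 50 genes highest in Ucp1-positive nuclei of BAT, a list set from BAT alone, gave 2.01 (1.73 to 2.33) in mesPVAT, 1.65 (1.3 to 2.08) in RP fat and 4.38 (4.25 to 4.52) in taPVAT. This list shares genes with the sums before it, among them Gk, Cpt1b, Pdk4, Ppara and Ppargc1b, so the sums are not separate results. Without the 4 genes and the adipocyte list, its other 46 genes gave 1.89 (1.62 to 2.21) in mesPVAT and 1.61 (1.26 to 2.05) in RP fat.

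General adipocyte genes showed a mixed picture. Summed without Plin1, 19 adipocyte genes gave a ratio of 1.22 (1.07 to 1.38) in mesPVAT and 1.62 (1.25 to 2.09) in RP fat. In mesPVAT 17 members could be compared, of which 3 were at least 2-fold higher and 1 lower, against 3.18% and 7.22% of all genes. The 3 were Pparg, the master regulator of fat cells (25 and 40 UMIs, ratio 3.12, 1.82 to 5.28), and the acetyl-CoA carboxylases Acacb (17 and 22, 3.86, 1.93 to 7.62) and Acaca (14 and 31, 2.26, 1.11 to 4.37). Adipoq, which encodes adiponectin, had 1 UMI in the positive and 24 in the negative nuclei, a ratio of 0.21 (0.01 to 1.28). Pck1, a glyceroneogenic enzyme, had 45 and 168 UMIs, a ratio of 1.34 (0.94 to 1.87). In RP fat 8 members could be compared, of which 1 was at least 2-fold higher and 0 lower, against 3.16% and 9.85% of all genes. Lpl, the lipase that takes up circulating triglyceride, had 10 and 19 UMIs (2.63, 1.09 to 5.95), Pck1 13 and 31 (2.10, 1.01 to 4.12) and Acsl1, which activates fatty acids, 14 and 35 (2.00, 0.99 to 3.81). Pparg had 4 and 28 there (0.71, 0.18 to 2.04).

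Of the lists of other cell types, ASPC markers had intervals that were apart between the 2 libraries, and those of the other lists overlapped. Summed over 12 endothelial markers, of which none was at 0 and Mecom was the most abundant in mesPVAT and Cyyr1 in RP fat, the positive nuclei gave a ratio of 1.44 (1.19 to 1.73) in mesPVAT, where Kdr, a receptor of vascular endothelial growth factor, reached 2.60 (1.22 to 5.28), and 0.93 (0.61 to 1.38) in RP fat. A UMI of any of these markers was found in 44.8% (34.6 to 55.3) of positive and 42.5% (38.0 to 47.1) of negative nuclei of mesPVAT. Deep nuclei weighed on the sum, and 1 positive nucleus alone held 18 of the 151 UMIs. The interval of the ratio does not cover such differences between nuclei. All 12 endothelial genes could be compared in mesPVAT, where 3 were at least 2-fold higher and 0 lower, against 3.18% and 7.22% of all genes. Only 2 could be compared in RP fat, and both were at least 2-fold lower, against 9.85% of all genes. These were Mecom with 2 and 40 UMIs (0.25, 0.03 to 0.96) and Flt1, another receptor of that growth factor, with 2 and 27 (0.37, 0.04 to 1.47). The remaining endothelial markers had too few UMIs there to be compared singly. The 11 markers of adipose stem and progenitor cells (ASPC), of which 2 were at 0 in mesPVAT and 1 in RP fat, gave 0.76 (0.61 to 0.94) in mesPVAT and 1.64 (1.26 to 2.11) in RP fat, where the collagen gene Col1a2 had 11 and 13 UMIs (4.23, 1.72 to 10.2) and Col3a1, the most abundant, 26 and 69 (1.88, 1.15 to 3.00). Of 7 ASPC genes compared in RP fat, 1 was at least 2-fold higher and 0 lower, against 3.16% and 9.85% of all genes. The 1 was Col1a2, which would not have reached the minimum at the level of the negative nuclei. Lama2 (6 and 40, 0.75, 0.26 to 1.78) and Gsn (2 and 22, 0.45, 0.05 to 1.85) stood below 1. The ratios in mesPVAT and RP fat were 0.65 (0.41 to 0.99) and 0.88 (0.48 to 1.5) for immune markers, 0.67 (0.47 to 0.93) and 0.56 (0.27 to 1.05) for pericyte and smooth muscle markers, 0.56 (0.23 to 1.15) and 0.68 (0.24 to 1.61) for lymphatic markers, 1.06 (0.40 to 2.44) and 1.82 (0.42 to 6.13) for mesothelial markers, and 0.95 (0.64 to 1.36) and 1.32 (0.74 to 2.25) for Schwann cell markers. Stress genes gave 0.87 (0.33 to 1.97) and 0.71 (0.22 to 1.83) and ribosomal protein genes 1.28 (1.01 to 1.61) and 1.29 (0.85 to 1.90). Transcripts of the mitochondrial genome gave 2.24 (1.61 to 3.09) in mesPVAT and 0.89 (0.50 to 1.51) in RP fat. The part of these cell types in the ratios of other genes was not tested.

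Among genes with a UMI in at least 10 positive nuclei, ranked by the ratio with 1 UMI added, the genes that led the positive nuclei of mesPVAT after Pdk4 were Mb21d2 (13 and 15 UMIs, ratio 4.33), Acacb, the mitochondrial complex I gene Mt-nd5 (14 and 19, 3.68), the pseudogene Cd36-ps1 (13 and 18, 3.61), Rbp7, a retinol binding protein (23 and 35, 3.29), Gnas, the stimulatory G protein downstream of beta adrenergic receptors (42 and 68, 3.09, 2.05 to 4.60), and Pparg. They went on with Vgll4, Plpp3, Adra1a, Zfhx4, Pias2, Itgb5 and Dkk2, at ratios of 2.86 to 3.23. In RP fat Lrp1, an endocytic receptor, led under the same limit (21 and 33 UMIs, ratio 3.18, 1.75 to 5.66), followed by Asap1 (3.23), Slc4a4, a bicarbonate transporter (3.00), Prickle2 (2.63), Lama4 (2.40) and Mast4 (2.19). Both limits could favour genes that are high in the positive nuclei, and Mb21d2 would not have reached the minimum of UMIs at the level of the negative nuclei, so the ranking is a description. At the other end, Dnah11, Otud5 and Arhgap17 had 0 UMIs in the positive nuclei of mesPVAT and 37, 34 and 34 in the negative nuclei, and Shisa6, Shisa9 and Enox1 had 0 in RP fat and 28, 26 and 25.

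Each nucleus was also given the class with most marker UMIs, of at least 2 and without a tie. Adipocyte was the class of 43 of 96 positive nuclei of mesPVAT (44.8%, 34.6 to 55.3), against 139 of 480 matched nuclei (29.0%, 24.9 to 33.2), and of 19 of 68 in RP fat (27.9%, 17.7 to 40.1), against 40 of 340 (11.8%, 8.54 to 15.7). In the BAT library 85.2% of matched positive nuclei were in this class. Endothelial nuclei made up 12.5% of positive and 11.5% of negative nuclei in mesPVAT and 2.94% and 4.12% in RP fat, and ASPC 6.25% and 13.1%, and 14.7% and 13.2%. No class was reached by 29.2% of positive nuclei of mesPVAT and 47.1% of those of RP fat.

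Read by class over the whole libraries, Ucp1 was not restricted to adipocytes. It was found in 4.80% (3.49 to 6.41) of 896 adipocyte nuclei of mesPVAT, at a median of 475.5 UMIs, and in 3.16% (1.64 to 5.45) of 380 endothelial nuclei, at 461.5 UMIs. The share in ASPC was 1.53% (0.56 to 3.29) of 393 nuclei. In RP fat it was 5.29% (3.22 to 8.14) of 359 adipocyte nuclei at a median of 269 UMIs, 1.31% (0.16 to 4.64) of 153 endothelial nuclei at 450 UMIs and 3.66% (1.77 to 6.63) of 273 ASPC nuclei. Endothelial cells are not known to make Ucp1, and their nuclei are given as a reference. Where their Ucp1 UMIs came from was not tested. In both libraries the intervals of these shares in adipocyte and endothelial nuclei overlapped. Scaled to depth, Ucp1 stood at 78.8 CPM (57.9 to 105) in adipocyte and 41.9 (22.3 to 71.6) in endothelial nuclei of mesPVAT. The intervals were apart in RP fat, at 191 CPM (121 to 287) in adipocyte and 33.8 (6.97 to 98.7) in endothelial nuclei. Nuclei in the class of Schwann cells, the glia of peripheral nerves, had a Ucp1 UMI in 3 of 30 cases in mesPVAT (10%, 2.11 to 26.5) and 3 of 32 in RP fat (9.38%, 1.98 to 25). Of 509 endothelial nuclei of BAT, 19.1% had a Ucp1 UMI, at 197 CPM against 2519 CPM in adipocyte nuclei.

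Within both classes of mesPVAT the share was higher among nuclei with a brown-depot partner. With one, 9.42% (6.69 to 12.8) of 382 adipocyte and 7.09% (3.29 to 13) of 127 endothelial nuclei of mesPVAT had a Ucp1 UMI. Without one, 1.36% (0.55 to 2.79) of 514 adipocyte and 1.19% (0.25 to 3.43) of 253 endothelial nuclei did. The intervals were apart for adipocyte nuclei and overlapped slightly for endothelial nuclei. In RP fat the shares in adipocyte nuclei were 8.20% (4.66 to 13.2) of 183 with a partner and 2.27% (0.62 to 5.72) of 176 without, and of endothelial nuclei 1 of 51 and 1 of 102 had a Ucp1 UMI.

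Split by partner, the summed ratios of the heat program genes in mesPVAT were higher among nuclei with a partner, with intervals that overlapped those of nuclei without. The matching was by having a partner, not by the Ucp1 content of the partner. Partners of positive nuclei held a median of 11 Ucp1 UMIs in mesPVAT, against 4 over all nuclei with a partner. In RP fat these medians were 9 and 3. Matched within nuclei with a partner, 74 positive and 370 negative nuclei of mesPVAT gave ratios of 1.92 (1.22 to 2.96) for the sum of Cidea, Cpt1b, Gk and Ppargc1a, 1.54 (1.24 to 1.91) for the other 28 thermogenic genes and 1.68 (1.42 to 1.99) for the 50 genes from BAT. Without a partner, 21 positive and 105 negative nuclei gave 1.14 (0.34 to 3.07), 1.15 (0.73 to 1.74) and 1.40 (1.03 to 1.87). The 4 genes had 5 UMIs in these 21 nuclei, and Gk had none. Single genes did not all follow the sums. Cidea gave 2.10 (0.80 to 5.03) with a partner and 0.83 (0.02 to 6.87) without, so that its interval included 1 in both. Cpt1b gave 3.12 (0.80 to 10.8) with a partner, and without one it had 2 and 1 UMIs, a ratio of 9.998 (0.52 to 590). Pdk4 gave 2.12 (1.05 to 4.07) with a partner and 4.999 (0.67 to 37.3) without, on 3 and 3 UMIs. In RP fat the ratios with a partner, from 45 and 225 nuclei, were 1.37 (0.54 to 3.08), 1.64 (1.13 to 2.32) and 1.67 (1.26 to 2.19). Without a partner, from 23 and 115 nuclei, they were 3.33 (0.69 to 14.0) on 4 and 6 UMIs, 1.29 (0.71 to 2.22) and 1.08 (0.68 to 1.65).

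For the 19 adipocyte genes without Plin1, the ratio was 1.36 (1.17 to 1.58) with a partner and 0.90 (0.69 to 1.16) without in mesPVAT, and 1.66 (1.22 to 2.23) and 0.94 (0.56 to 1.5) in RP fat. The 2 intervals were apart in mesPVAT and overlapped in RP fat. The adipocyte class held 48.6% of positive and 32.7% of negative mesPVAT nuclei with a partner, and 33.3% of both without. In RP fat it held 33.3% and 18.7% with a partner and 17.4% and 15.7% without. At least 2 of the 5 genes were seen in 14.9% of positive and 4.32% of negative mesPVAT nuclei with a partner, and in 4.76% and 9.52% of those without. In RP fat they were seen in 6.67% and 0.889% with a partner and in 4.35% and 0.870% without. ASPC genes in RP fat went the other way, with ratios of 1.3 (0.87 to 1.90) with a partner and 2.06 (1.43 to 2.92) without. In the plot split by partner, the intervals of nuclei without a partner include 1 except for the 50 genes from BAT and the endothelial markers in mesPVAT and the ASPC markers in RP fat. The endothelial ratio there was not matched by the share of nuclei with a marker UMI. That share was 47.6% (25.7 to 70.2) of positive and 55.2% (45.2 to 65.0) of negative nuclei.

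**Figure D4:**
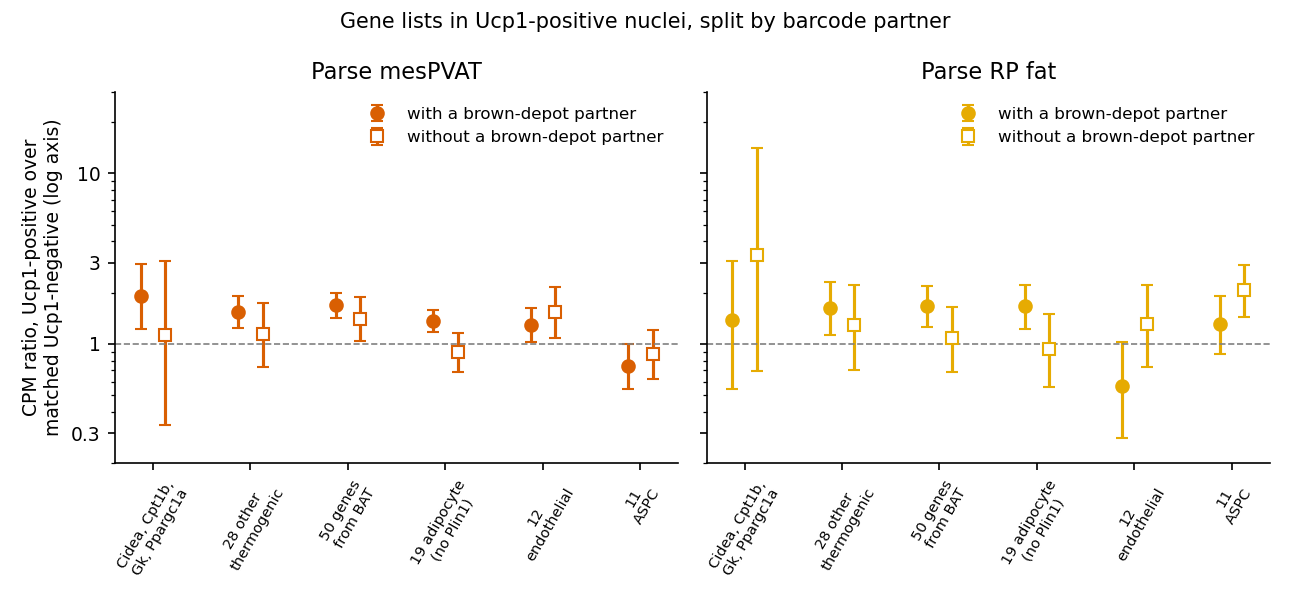
CPM ratio of 6 summed gene lists in Ucp1-positive over UMI-matched Ucp1-negative nuclei (log axis, dashed line at 1), for nuclei with (filled) and without (open) a brown-depot partner, in mesPVAT and RP fat. Bars are exact conditional 95% intervals, and the 19 adipocyte genes stand at 1.36 and 1.66 with a partner and at 0.90 and 0.94 without.

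Nuclei that had no Ucp1 UMI at all, which the rule therefore did not choose, were also graded by the partner. In Ucp1-negative nuclei of mesPVAT the sum of Cidea, Cpt1b, Gk and Ppargc1a was 241 CPM (212 to 272) without a partner, 307 (243 to 383) with a partner without Ucp1, 298 (209 to 413) with a partner of 1 to 4 Ucp1 UMIs, 465 (332 to 633) with 5 to 9, 737 (547 to 972) with 10 to 19 and 1499 (1123 to 1961) with 20 or more. In RP fat the 6 values were 348 (301 to 401), 287 (191 to 414), 412 (274 to 596), 636 (426 to 913), 886 (627 to 1216) and 1373 (839 to 2120). Pdk4 stood at 47.2 CPM (34.9 to 62.4) in the first and 481 (280 to 770) in the last grade in mesPVAT, and at 27.2 (15.2 to 44.9) and 481 (193 to 990) in RP fat. Endothelial markers did not follow the grades, at 2325 CPM (2233 to 2419) in the first and 1923 (1494 to 2438) in the last in mesPVAT, and at 1650 (1544 to 1761) and 1922 (1277 to 2778) in RP fat. Plin1 varied without order in mesPVAT, from 743 to 1810 CPM, with 1428 (1356 to 1502) in nuclei without a partner, and ranged from 446 (392 to 505) without a partner to 824 (426 to 1439) in the last grade in RP fat. The other 19 adipocyte genes were higher in the last grade, at 4824 CPM (4691 to 4959) in the first and 8033 (7125 to 9023) in the last in mesPVAT, and at 1858 (1746 to 1976) and 5972 (4784 to 7367) in RP fat. Pparg stood at 162 (138 to 188) and 622 (390 to 942) in mesPVAT, and at 179 (146 to 219) and 137 (16.6 to 496) in RP fat. ASPC markers were lower in the last grade in mesPVAT, at 2653 (2555 to 2754) and 1697 (1295 to 2184), and stood at 2322 (2197 to 2453) and 2197 (1503 to 3101) in RP fat. In the plot of these nuclei the sum of the 4 thermogenic genes has overlapping intervals in the lowest 3 grades and is higher with each grade from 5 Ucp1 UMIs on, in both libraries, while the intervals of the endothelial markers overlap between the first and the last grade.

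**Figure D5:**
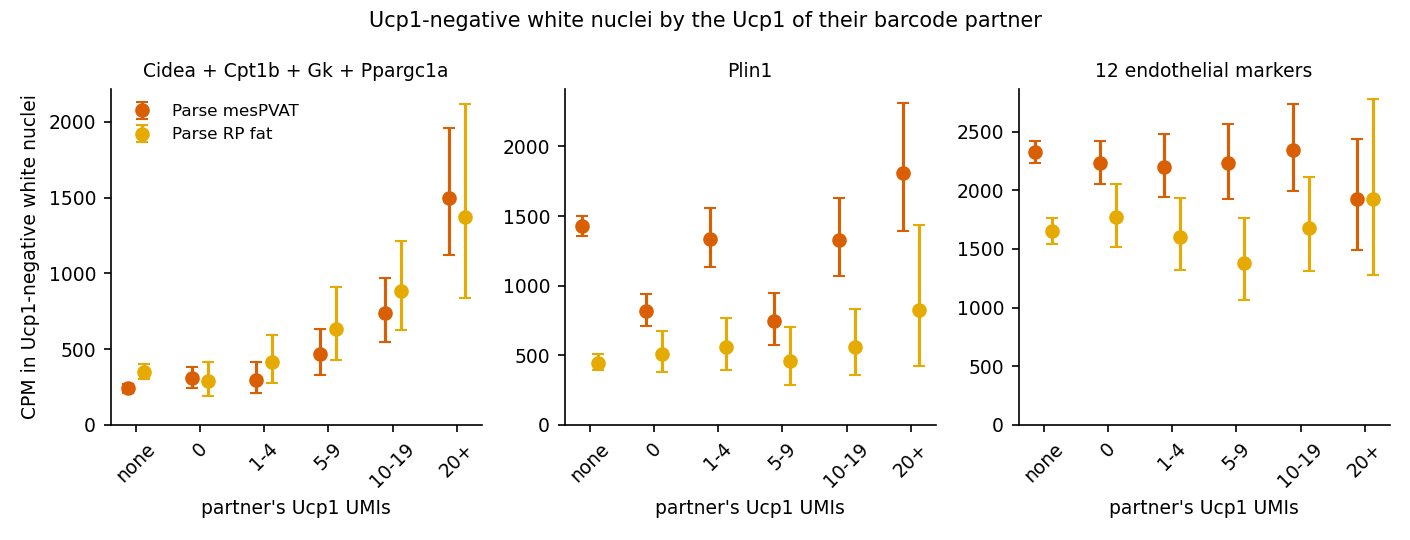
CPM (with exact Poisson 95% intervals) of 4 summed thermogenic genes, of Plin1 and of 12 summed endothelial markers in Ucp1-negative nuclei of mesPVAT (orange) and RP fat (yellow), by the number of Ucp1 UMIs in their brown-depot barcode partner. The thermogenic sum runs from 241 to 1499 CPM in mesPVAT and from 287 to 1373 CPM in RP fat.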

How the data were processed

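Nuclei of 4 rat tissues and cow fat were barcoded with the Parse kit (fixed nuclei, 3 rounds of pooling and splitting, 2 sublibraries). The authors aligned and counted the rat reads with split-pipe on GRCr8 and deposited UMI counts per gene and called barcode, not normalized. The deposited metadata give read, transcript and gene counts and the wells of each barcode. The 10x Genomics counts were made by the authors with Cell Ranger on Rnor_6.0. All deposited barcodes were used, with no doublet caller, and groups come from the labels. Total UMIs ranged from 845316 to 6317970 over the 4 rat Parse libraries, and 1237543 in the 10x library. The nuclei, gene lists and comparisons were chosen with earlier results of these data known.

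Positive nuclei in falling order of UMIs were matched to the k nearest unused negative nuclei within 10% of their UMI total. k was 5 in both white libraries, the largest of 5, 3, 2 and 1 at which 95% of positive nuclei were matched, and 1 in taPVAT and BAT. CPM is the summed UMIs of a gene over all UMIs of the group. Genes with at least 20 UMIs over both groups were compared, with 1 UMI added to each sum, scaled to depth. Named were Ucp1, the 5 genes, the leading and 2-fold members of each list, and the 15 highest (in at least 10 positive nuclei) and 8 lowest genes of each library, of which the first are printed. Thinned values are exact hypergeometric expectations. Intervals are exact at 95%. Alternatives varied the matching, depth, Ucp1 threshold, filters and fold, and the comparison by partner was added after the barcodes had been examined. The gene comparison was tested on simulated counts. Gene positions are from RefSeq. The labels of the white libraries were kept as deposited, although the 2 names may be exchanged, and each value for mesPVAT or RP fat depends on them. Python 3.11.15, numpy 2.4.6, scipy 1.17.1, pandas 2.3.3 and matplotlib 3.10.9 were used.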

Additional observations from a re-analysis of the deposited data

Results flagged for a closer look

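Both genes below were picked out because their ratios, Ucp1-positive over matched negative nuclei, lay on opposite sides of 1 in the 2 white libraries. The difference between the libraries was not tested. For Ppargc1a the ratio was 1.41 (0.70 to 2.66) in mesPVAT and 0.74 (0.19 to 2.12) in RP fat. For Plin1 it was 0.86 (0.64 to 1.14) in mesPVAT and 1.16 (0.58 to 2.15) in RP fat. All 4 intervals included 1 and the intervals of the 2 libraries overlapped for both genes.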

How the results depend on the processing

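Of 179 recomputed values, 128 stayed within the counting interval or within 1.5 times the count, 46 moved and 5 took a ratio of at least 2 to below 1. Counting ratios closer to 1, 15 values crossed 1, the others for Ppargc1a and Plin1. The cause was not tested. Alternatives by partner, by first-round well and, for the ratios, with every nucleus of at least 200 UMIs thinned to 200 were chosen after seeing the data. For the share of nuclei with Ucp1, 2 or more UMIs gave 0.297% in mesPVAT and 0.178% in RP fat, thinning to 200 UMIs 1.56% and 1.65%, to 300 UMIs 1.55% in mesPVAT, at least 500 UMIs 3.68% in RP fat, nuclei without a brown-depot partner 1.08% and 1.29%, and nuclei with one 6.93% and 4.53%. For nuclei with 2 or more Ucp1 UMIs, which were 9 and 5, the ratio was 0 for Gk, 3.33 for Ppargc1a and 0.172 for Plin1 in mesPVAT and 0 for Cidea, Ppargc1a and Plin1 in RP fat. Of the 9 in mesPVAT, 3 had a Cidea UMI. The sum of Cidea, Cpt1b, Gk and Ppargc1a was 1589 CPM (583 to 3459) in these 9. It was 616 (413 to 885) with 1 Ucp1 UMI and 316 (289 to 345) with none. In the 5 nuclei of RP fat it was 0 (0 to 3568). Without partners the ratio was 0.833 for Cidea and 0 for Gk in mesPVAT and 2.50 for Ppargc1a and 0.441 for Plin1 in RP fat. With 1 nearest match Cpt1b in RP fat gave 0.670, and thinned to 200 UMIs Plin1 in mesPVAT gave 0.508. At least 1 of the 5 genes was seen in 42.7% of positive and 32.3% of negative nuclei of mesPVAT and 23.5% and 19.1% of RP fat, and at least 2, without partners, in 4.76% and 9.52% in mesPVAT. With BAT alone as partner the share of positive nuclei was 37.5% in mesPVAT and 39.7% in RP fat. Asking for 3 marker UMIs gave 0% of endothelial nuclei with Ucp1 in RP fat.

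Genes at least 2-fold higher and lower numbered 375 and 812 in mesPVAT and 185 and 420 in RP fat with a minimum of 10 UMIs, 18 and 42, and 3 and 12, with 50 UMIs, and 14 and 18, and 4 and 8, with 5 UMIs added. With a fold of 1.5 they numbered 439 and 672, and 144 and 239, and with a fold of 3, 7 and 60, and 2 and 24. Depth limits all of this: the positive nuclei hold 50855 and 22618 UMIs, and intervals cover counting error only. No paired analysis was possible because each tissue had 1 Parse library, and mesPVAT on the 10x Genomics platform had 1 nucleus with Ucp1.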
